A study of Mus musculus with 16 samples.

Results

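The genes that carry a signal from the antigen receptor of B cells into the cell were followed across normal B cells and Myc-induced B lymphomas of mice. They are Cd79a and Cd79b (the signal chains of the receptor), Cd22 (an inhibitory coreceptor), the kinases Blk, Lyn, Syk and Btk, the adaptor Blnk and the phospholipase Plcg2. Each gene was read from the transcript cluster, the probe group of an exon array, that carries its symbol alone. Of the 9 genes, 8 were found in this way among 14860 genes tested, each with 1 transcript cluster, and Lyn is not analysed here.

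RNA of 16 mouse samples had been hybridised to Affymetrix exon arrays, 1 array per sample. The p53-null groups carry p53(-/-) and the p53-246 groups carry p53(246/-), a numbered p53 allele over a null allele, so that every sample carries at least 1 null p53 allele. There were 2 p53-null and 2 p53-246 samples of normal B cells from spleen, and 6 p53-null and 6 p53-246 samples of Myc-induced B lymphoma cells from lymph nodes. All mice were of a C57BL6/129 hybrid background, other cells had been depleted with magnetic beads (MACS), and the construct that drives Myc and the ages of the mice are not given in the sources used here. Spleen and lymph node differ between normal cells and lymphomas exactly as cell type does, and these cannot be told apart. Whether the samples of a group came from separate animals is not in the labels, and p-values here then reflect only how these samples vary, which may be technical. In bulk RNA, fewer cells of a type and less RNA per cell cannot be told apart.

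Values were taken as log2 intensities, a base that the labels do not state, so a difference of 1 is read as a doubling. They compare 1 gene between samples but not 1 gene with another. Array medians ran from 5.06 to 5.35. A low-value cutoff of 5.163 was taken from the 95th percentile of 800 olfactory and vomeronasal receptor genes, and all 8 genes were above it in every group. The spread over genes was smallest on p53-246 lymphoma 6 (SD 1.56) and p53-null normal sample 1 (SD 1.57), called the narrow arrays here. The mean of 8 B lineage genes was 9.80 to 10.05 in the normal samples and 8.39 to 9.65 in the lymphomas, and all 8 were above the cutoff on every array. Of these 8, Ms4a1 (the CD20 antigen) differed by -2.59, Pax5 by -1.04 and Ebf1 by -1.32 in lymphoma minus normal cells. Vpreb3 differed by 1.14, and all 4 passed the test described below.

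The B cell receptor is an immunoglobulin on the cell surface with a pair of short partner chains, Ig-alpha (Cd79a) and Ig-beta (Cd79b). Src family kinases such as Lyn and Blk phosphorylate the tails of these chains, Syk binds there and phosphorylates the adaptor Blnk, and Blnk brings Btk and Plcg2 together so that calcium and lipid signals follow. Cd22 recruits phosphatases that dampen this chain of events, and mature B cells depend on a basal receptor signal to survive.

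Promoter windows of these genes are shown because 6 of the 8 measured genes fell in the lymphomas and 2 did not pass the test. RefSeq windows on GRCm38.p6, here the 250 bases before a transcript start, were present for 6 of the 9 genes, with 2 windows for Syk; Cd79b, Lyn and Blk have no entry. Below are Cd22 and Blnk, which fell, and Cd79a and Plcg2, which did not pass, each printed on the gene's own strand with matched motifs in capitals.
Cd22, chr7:30879029-30879278, minus strand: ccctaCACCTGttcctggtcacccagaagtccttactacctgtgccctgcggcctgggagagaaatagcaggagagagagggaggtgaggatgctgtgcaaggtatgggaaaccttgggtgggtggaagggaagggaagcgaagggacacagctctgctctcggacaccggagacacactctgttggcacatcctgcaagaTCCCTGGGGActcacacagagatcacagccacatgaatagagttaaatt
Blnk, chr19:40994222-40994471, minus strand: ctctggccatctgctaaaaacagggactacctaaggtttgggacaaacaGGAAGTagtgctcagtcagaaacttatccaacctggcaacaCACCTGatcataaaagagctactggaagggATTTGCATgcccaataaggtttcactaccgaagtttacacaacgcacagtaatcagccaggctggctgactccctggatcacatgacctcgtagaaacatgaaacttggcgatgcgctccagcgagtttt
Cd79a, chr7:24897247-24897496, plus strand: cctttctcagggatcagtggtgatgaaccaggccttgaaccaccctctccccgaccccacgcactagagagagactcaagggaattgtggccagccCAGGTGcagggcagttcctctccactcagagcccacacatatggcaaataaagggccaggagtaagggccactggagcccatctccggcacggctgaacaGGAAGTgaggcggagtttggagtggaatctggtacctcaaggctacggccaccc
Plcg2, chr8:117498025-117498274, plus strand: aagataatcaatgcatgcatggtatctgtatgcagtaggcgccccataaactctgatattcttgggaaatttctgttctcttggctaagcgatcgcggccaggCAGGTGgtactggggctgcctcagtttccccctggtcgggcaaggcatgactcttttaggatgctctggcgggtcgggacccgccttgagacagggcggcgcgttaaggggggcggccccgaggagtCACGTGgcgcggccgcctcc

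The windows were searched on both strands for 5 motifs of factors active in B cells or of Myc. These were the octamer ATTTGCAT, read by Oct factors with the coactivator Pou2af1; the Ets core GGAAGT; the Ebf1 palindrome, TCCC and GGGA around any 2 bases; the E2A E-box CAGGTG; and the Myc E-box CACGTG. Among 32851 RefSeq windows of the same length, 1.60% held the octamer, 19.7% the Ets core, 0.779% the Ebf1 palindrome, 17.2% the E2A E-box and 6.02% the Myc E-box. The Cd22 window held the Ebf1 palindrome 49 bases before the start and, on the opposite strand, the E2A E-box 245 bases before it. That start lies inside the span of Cd22, which reaches 30880342 on its chromosome, and is not the outermost one. The Btk window and both Syk windows also lie inside the spans of their genes. The Blnk window held the octamer 130 bases, the Ets core 201 bases and, on the opposite strand, the E2A E-box 160 bases before the start. In the Cd79a window the Ets core lay 54 and the E2A E-box 154 bases before the start. Plcg2 had the Myc E-box 20 and the E2A E-box 147 bases before its start. Both Syk windows held the E2A E-box, at 200 bases on the opposite strand and at 144 bases, and the Btk window held none of the 5 motifs. No matched motifs overlapped one another in a window. Genes that fell and genes that did not pass both held E2A E-boxes, and these matches are letters in a window, not measured binding sites.

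The comparison of lymphoma with normal cells asked how the transcripts of this signalling chain differ between them. With both genotypes averaged (12 lymphomas, 4 normal samples), 6 of 8 genes were lower and 0 higher, against 17.8% of all 14860 genes lower and 20.4% higher. The genes were chosen with earlier results of these data known, so these shares are a description only. The 6 were Blk, Cd22, Syk, Blnk, Cd79b and Btk. Their log2 differences ran from -2.19 for Blk to -0.52 for Btk, which is 4.56-fold to 1.43-fold lower. Cd79a and Plcg2 did not pass. The median of the 8 differences was -1.18, beside -0.09 over all genes. Differences were tested with limma over all genes with Benjamini-Hochberg adjustment and a threshold of 0.05. Every lymphoma was below every normal sample for these same 6 genes, an arrangement found in 8.74% of all genes. Markers of other blood cells also differed between the cell types, as given below, and their part in these differences was not tested.

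**Figure D1:**
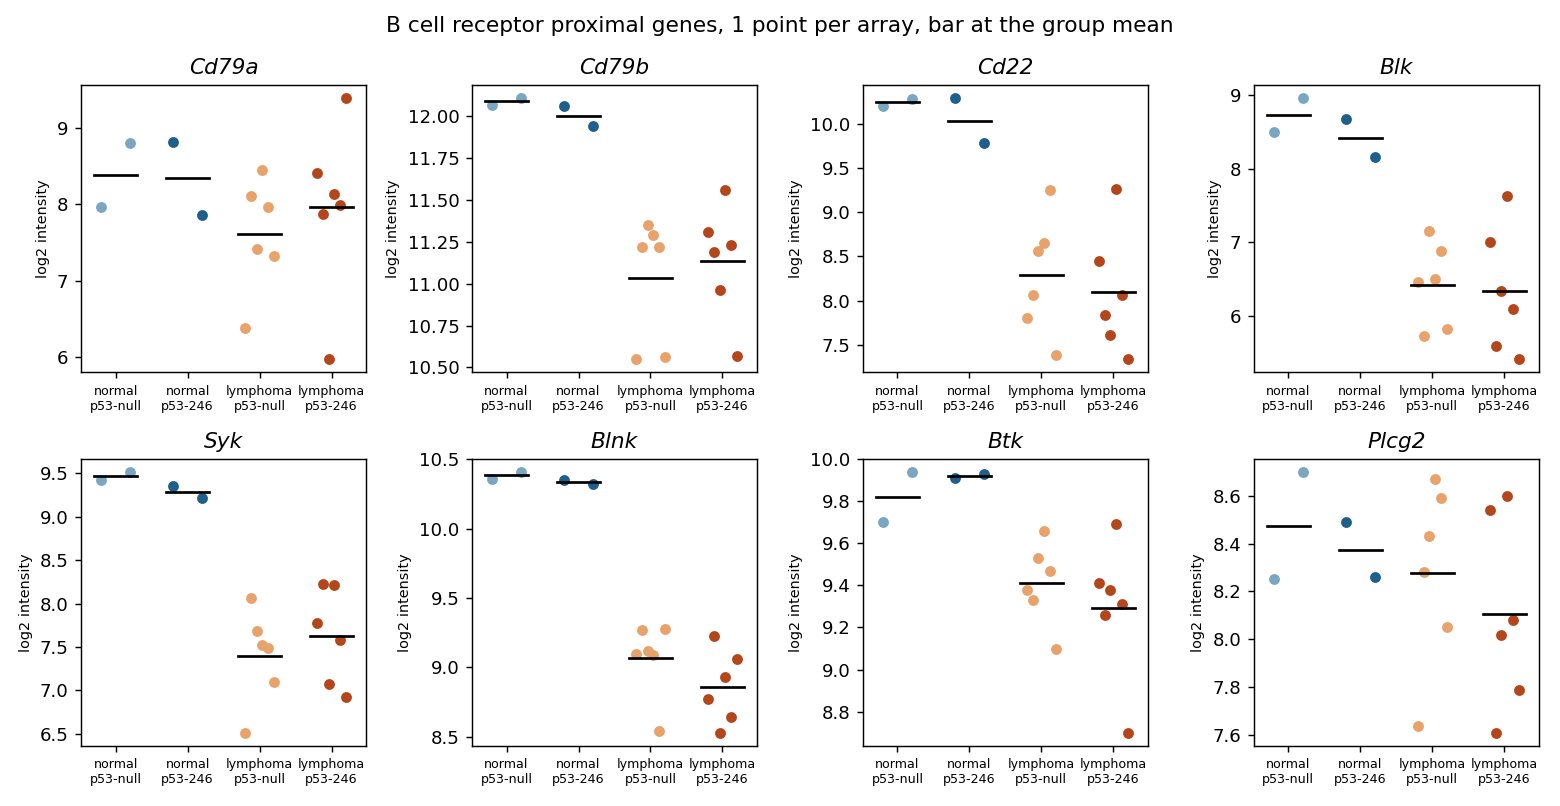
Log2 intensity (vertical axes, each with its own range that does not start at 0) of the 8 genes in the 4 groups; each point is 1 array and each bar the group mean. Lymphomas lie below all normal samples for Cd79b, Cd22, Blk, Syk, Blnk and, by 9.69 against 9.70, Btk, and overlap them for Cd79a and Plcg2.

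The signal chains of the receptor were Cd79b, which fell, and Cd79a, which did not pass the test. Cd79b, which encodes Ig-beta, was 12.07 and 12.11 in the p53-null and 12.06 and 11.94 in the p53-246 normal samples. The lowest, median and highest lymphoma values were 10.55, 11.22 and 11.35 with p53-null and 10.57, 11.21 and 11.56 with p53-246. The normal samples lay within 0.17 of each other and above all lymphomas. Cd79b was lower in lymphomas by a log2 difference of -0.96 (SE 0.17, 1.95-fold, adjusted p = 2.4e-04 in limma).

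Cd79a, which encodes Ig-alpha, was 7.96 and 8.80 in the p53-null and 8.82 and 7.86 in the p53-246 normal samples. Its lowest, median and highest values were 6.39, 7.69 and 8.45 in p53-null lymphomas and 5.98, 8.07 and 9.39 in p53-246 lymphomas. The groups overlapped, and 4 of 12 lymphomas lay below the lowest normal sample. The lowest value was that of p53-246 lymphoma 3, and the highest was that of p53-246 lymphoma 6, which is a narrow array. The log2 difference was -0.57 (SE 0.45, 95% interval -1.52 to 0.37, adjusted p = 0.33 in limma). The change of Cd79a minus that of Cd79b was 0.39 on the log2 scale (exact permutation p = 0.405, adjusted p = 0.473), so their changes were not shown to differ.

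Cd22, the inhibitory coreceptor that binds sialic acid, was 10.20 and 10.28 in the p53-null and 10.29 and 9.78 in the p53-246 normal samples. The p53-null lymphomas had a lowest, median and highest value of 7.39, 8.31 and 9.25, and the p53-246 lymphomas of 7.34, 7.95 and 9.26. No lymphoma reached the normal range, although the lymphomas themselves spread over 1.92. Cd22 differed by -1.95 (SE 0.31, 3.86-fold lower, adjusted p = 7.2e-05 in limma). Its own window, shown above, was the only one of the 7 with an exact match to the Ebf1 palindrome. Other forms of an Ebf1 site were not searched for, so the other windows may hold some.

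Blk, a Src family kinase of B cells, had the lowest estimate of the 8. It was 8.50 and 8.96 in the p53-null and 8.68 and 8.16 in the p53-246 normal samples. The lowest, median and highest lymphoma values were 5.73, 6.48 and 7.15 with p53-null, against 5.42, 6.22 and 7.63 with p53-246. The highest lymphoma, p53-246 lymphoma 4, was below the lowest normal sample. The log2 difference was -2.19 (SE 0.34, 4.56-fold lower, adjusted p = 4.1e-05 in limma).

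Syk, the kinase that docks on the phosphorylated tails, was 9.43 and 9.52 in the p53-null and 9.35 and 9.22 in the p53-246 normal samples. In lymphomas it had a lowest, median and highest value of 6.51, 7.50 and 8.06 in p53-null and of 6.92, 7.68 and 8.22 in p53-246. The lymphoma and normal ranges were a full unit apart, from 8.22 to 9.22. Syk differed by -1.87 (SE 0.25, 3.65-fold lower, adjusted p = 1.1e-05 in limma).

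Blnk, the adaptor that Syk phosphorylates, was 10.36 and 10.41 in the p53-null and 10.35 and 10.32 in the p53-246 normal samples. Its lowest, median and highest values were 8.54, 9.11 and 9.28 in p53-null lymphomas and 8.53, 8.85 and 9.23 in p53-246 lymphomas. Both the normal samples, within 0.10 of each other, and the lymphomas, within 0.75, were tightly grouped and well apart. The difference of -1.40 (SE 0.14, 2.64-fold lower) had the smallest adjusted p of the 8 genes, 2.8e-07 in limma.

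Btk, the Tec family kinase that activates phospholipase C-gamma, was 9.70 and 9.94 in the p53-null and 9.91 and 9.93 in the p53-246 normal samples. The lowest, median and highest lymphoma values were 9.10, 9.42 and 9.66 with p53-null, against 8.70, 9.35 and 9.69 with p53-246. The groups just failed to overlap, the nearest pair being p53-246 lymphoma 4 and the narrow array p53-null normal sample 1. Btk differed by -0.52 (SE 0.14, 1.43-fold lower, adjusted p = 0.00678 in limma). With each array centred on its median the difference was -0.39 and did not pass (adjusted p = 0.0765 in limma).

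Plcg2, the phospholipase C-gamma that Btk activates, was 8.25 and 8.70 in the p53-null and 8.49 and 8.26 in the p53-246 normal samples. Lymphomas had a lowest, median and highest value of 7.64, 8.35 and 8.67 in p53-null and of 7.61, 8.05 and 8.60 in p53-246. The groups overlapped, with 6 of 12 lymphomas below the lowest normal sample. The log2 difference was -0.23 (SE 0.19, 95% interval -0.64 to 0.18, adjusted p = 0.366 in limma), so a fall larger than 0.64 lay outside the interval.

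The size of the measured fall differed along the chain. Probes of different genes may respond differently to the same change in RNA, and this was not tested. For each of the 28 pairs of genes, the lymphoma minus normal change of one was set against that of the other by an exact two-sided permutation test of cell type over the 16 samples, with 1820 arrangements and a smallest possible p of 5.5e-04. After Benjamini-Hochberg adjustment over the 28 pairs, 16 pairs differed. The share of differing pairs among all genes was not computed, so this count describes these genes only. Btk fell less than Syk (difference of changes 1.35), Blk (1.67), Cd22 (-1.43, Cd22 minus Btk) and Blnk (-0.88, Blnk minus Btk), each with an adjusted exact permutation p = 0.00171. Plcg2 differed from Blk, Cd22, Syk, Blnk and Cd79b, with their changes minus that of Plcg2 at -1.96, -1.72, -1.64, -1.17 and -0.73 (adjusted exact permutation p = 0.00171 for the first 4 and 0.00385 for Cd79b). Cd79b fell less than Syk (0.91), Cd22 (0.99) and Blk (1.23) and more than Btk (-0.44), and the change of Cd79a was smaller than those of Cd22, Syk and Blk (1.38, 1.30 and 1.62), all past the threshold. The differences among Blk, Cd22, Syk and Blnk did not pass in any of their 6 pairs.

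**Figure D2:**
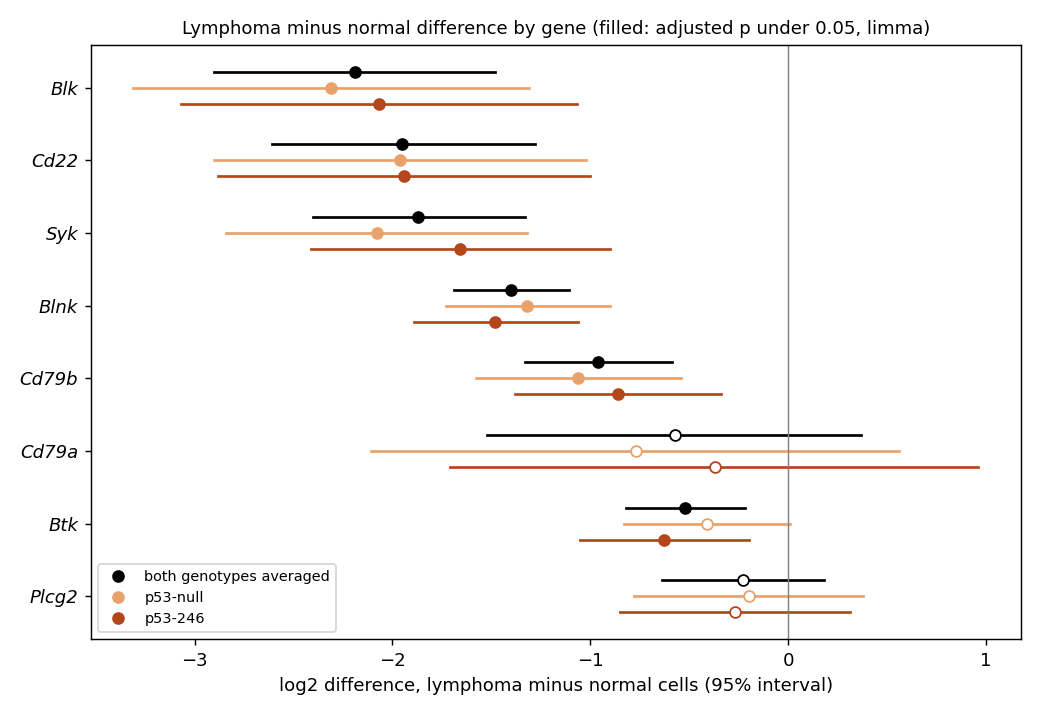
Log2 difference, lymphoma minus normal cells (horizontal axis), of each gene, averaged over the genotypes and in each one; points are estimates and lines 95% intervals of the limma fit, filled where the adjusted p is under 0.05. Blk, Cd22 and Syk lie near -2 in both genotypes, and the intervals of Cd79a and Plcg2 cross 0.

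The fall was also read within each genotype. In p53-null cells 5 of 8 genes were lower, beside 14.4% of all genes, and in p53-246 cells 6 of 8 were lower, beside 10.6%. The medians of the 8 differences were -1.19 and -1.17, against -0.11 and -0.05 over all genes. Btk made the difference in count, at -0.41 in p53-null (adjusted p = 0.124 in limma) and -0.63 in p53-246 (adjusted p = 0.0272 in limma). The genotypes share no samples, and the difference between them is the interaction tested below. The shares over all genes moved by over 1.5 times in some fits: the p53-null count of lower genes, 2137, was 1135 without p53-null normal sample 1, 1336 after median centring and 1232 when arrays were weighted, and the p53-246 count, 1577, was 961 or 883 without normal sample 1 or 2 and 3161 when arrays were weighted. Without p53-246 normal sample 1, which leaves 1 normal sample whose spread is taken from the other groups, only Syk and Blnk of the 8 passed in p53-246. The log2 differences of the other 4 were then -0.63 for Btk, -0.80 for Cd79b, -1.69 for Cd22 and -1.82 for Blk, against -0.63, -0.86, -1.94 and -2.07 with both samples. Arrays centred on their medians left Cd79b in p53-246 at -0.75 (adjusted p = 0.0605 in limma) and Btk at -0.52 (adjusted p = 0.124 in limma). With arrays weighted by quality, Cd22 in p53-null was -1.85 (adjusted p = 0.0573 in limma). Btk in p53-null passed at -0.58 after quantile normalization (adjusted p = 0.00347 in limma).

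The p53 genotypes were compared within each cell type. Between p53-246 and p53-null lymphomas (6 and 6), 0 of 8 genes passed, as did 0% of all genes in limma. Differences ran from -0.21 for Blnk (95% interval -0.50 to 0.08) to 0.36 for Cd79a (95% interval -0.58 to 1.30). No gene of the 8 had an unadjusted limma p under 0.05, the smallest being 0.148 for Blnk. Over all genes 445 did, or 2.99%, a smaller share than chance alone would give on average. In normal cells (2 and 2) the differences ran from -0.31 for Blk to 0.09 for Btk, with 0 of 8 genes and 0% of all genes past the threshold in limma. Under an unadjusted limma p of 0.05 were 0 of the 8 genes and 505 of all genes (3.40%). The smallest unadjusted limma p among the 8 genes was 0.60, for Blk. Over all genes this depended on the samples used. Without p53-null normal sample 2, which has the highest T cell markers of the normal samples, some genes passed, mostly lower in p53-246. That fit leaves 1 p53-null normal sample, a narrow array, whose spread is taken from the other groups. Without p53-246 normal sample 1 very few genes passed, again with 1 sample left in a group. None of the 8 passed in either fit. With all samples the intervals in normal cells were wide, from -1.54 to 0.92 for Blk. The interaction, which asks if the lymphoma minus normal difference depends on genotype, ran from -0.21 for Btk (95% interval -0.81 to 0.38) to 0.42 for Syk (95% interval -0.65 to 1.49). It passed for 0 of 8 genes and 0% of all genes in limma, with 0 and 540 (3.63% of all genes) under an unadjusted p of 0.05. Without p53-null normal sample 2 some genes passed for the interaction, mostly upward, and without p53-246 normal sample 1 very few did. Both fits leave 1 sample in a group, and none of the 8 passed in them.

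The lymphomas differed among themselves more in some genes than in others. After the genotype means were removed, the SD over the 12 lymphomas was 0.94 for Cd79a, 0.72 for Blk, 0.68 for Cd22, 0.54 for Syk, 0.39 for Plcg2, 0.36 for Cd79b and 0.27 for both Btk and Blnk. The median SD of the 7297 genes above the cutoff was 0.27. Cd79a varied more than 99.2% of those genes, Blk more than 97.7% and Cd22 more than 97.0%, whereas Btk and Blnk lay near the middle, above 49.3% and 49.0%. Without p53-246 lymphoma 6, the narrow array, the SD over the lymphomas was 0.85 for Cd79a and 0.18 for Btk. Over the 4 normal samples, with genotype means removed, the SD was also highest for Cd79a, at 0.63. It was 0.34 for Blk, 0.25 for Cd22 and Plcg2, 0.12 for Btk, 0.08 for Syk, 0.06 for Cd79b and 0.03 for Blnk. A wide spread of Cd79a was therefore not particular to the lymphomas.

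Several of these genes varied together from lymphoma to lymphoma. Over the 12 lymphomas, with genotype means removed, 8 of 28 pairs were correlated past the threshold by Pearson's r and also by Spearman's rank correlation, by exact permutation within genotypes (518400 arrangements) adjusted over the 28 pairs. Cd79b and Cd22 gave r = 0.84 (adjusted exact permutation p = 0.0156) and a Spearman coefficient of 0.90 (adjusted exact permutation p = 0.00504). It stayed at 0.84 without the 2 samples farthest from the median of Cd79b, and was 0.79 in p53-null and 0.90 in p53-246 lymphomas. Cd79b and Syk gave r = 0.84 and a Spearman coefficient of 0.71 (adjusted exact permutation p = 0.0156 and 0.0347), with r = 0.68 without the 2 farthest samples. Cd22 and Blk gave r = 0.82 and a Spearman coefficient of 0.76 (adjusted exact permutation p = 0.0156 and 0.0251), with r = 0.71 without them. The other 5 pairs were Cd79b with Btk (0.81) and with Plcg2 (0.77), Cd22 with Plcg2 (0.81) and with Btk (0.78), and Btk with Blk (0.79). The median r of the 28 pairs was 0.425, beside 0.10 over all pairs of the 7297 genes. Those genes were not matched in brightness to the genes followed here. The share of their pairs past the threshold was not computed, so whether the count of correlated pairs is unusual was not tested. Blnk stood apart, with negative r to 5 of the other 7 genes, from -0.21 with Cd79b to -0.44 with Blk, none past the threshold.

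These correlations depended in part on how the spread of the arrays was treated. Over the 12 lymphomas the spread of an array over all genes correlated with Btk at r = 0.89, Cd79b at 0.79, Blk and Plcg2 at 0.73, Cd22 at 0.72 and Syk at 0.60, but with Cd79a at -0.17 and Blnk at -0.31, given as descriptions. With that spread regressed out of both genes, 0 of 28 pairs passed, and r was 0.74 for Cd79b with Syk, 0.65 for Cd79b with Cd22 and 0.61 for Cd22 with Blk. Without p53-246 lymphoma 4, the lymphoma with the highest Blk, Btk, Cd22 and Cd79b, 0 pairs passed as well. The mean of the 8 B lineage genes correlated with Cd22 at 0.88, Plcg2 at 0.84, Cd79b at 0.81, Blk at 0.70, Syk at 0.69 and Btk at 0.65, against 0.29 for Cd79a and -0.33 for Blnk. The part of B cell content in the correlations was not tested.

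**Figure D3:**
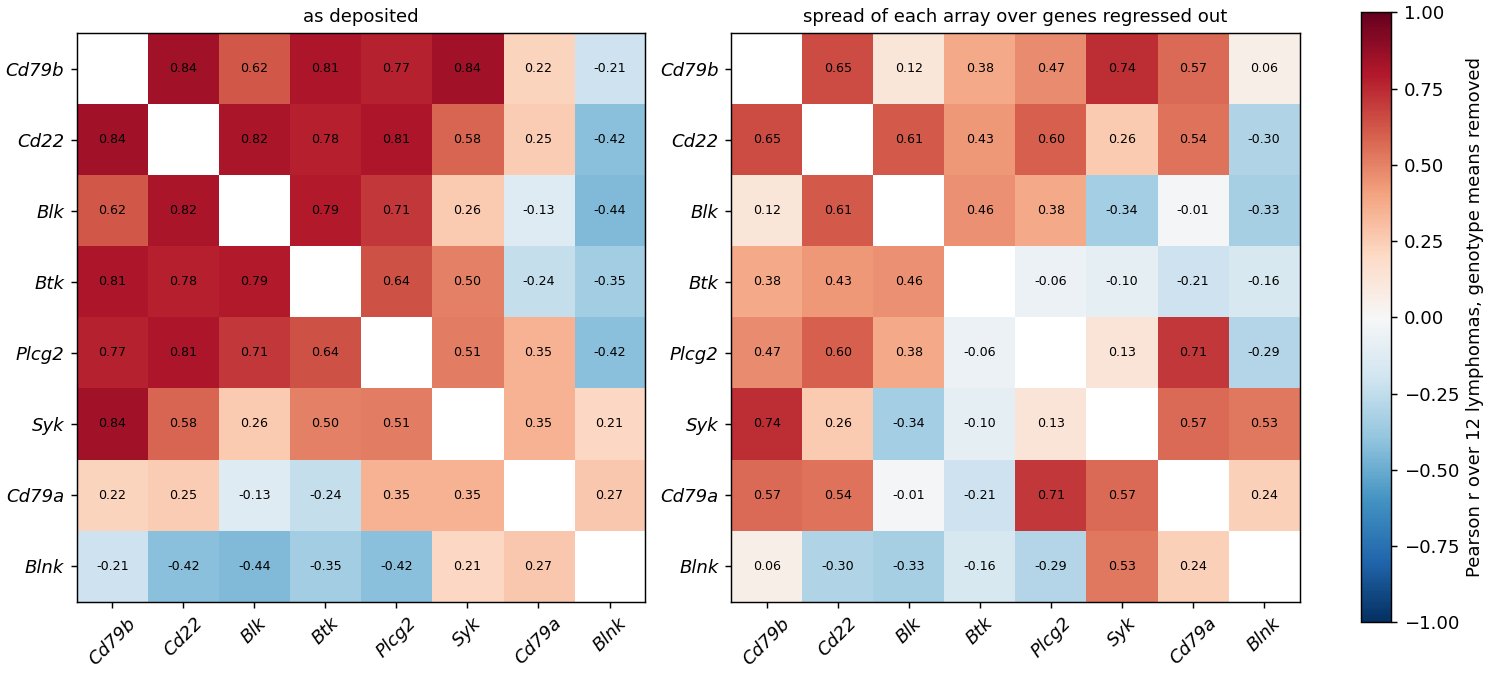
Pearson r between the 8 genes over the 12 lymphomas with genotype means removed (colour scale from -1 to 1), on the left from the deposited values and on the right with the spread of each array over genes regressed out. On the left Cd79b, Cd22, Blk, Btk and Plcg2 form a block of r from 0.62 to 0.84; on the right their r runs from -0.06 to 0.65.

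For each gene, the 3 genes with the highest r over the 12 lymphomas among the 7297 were listed as a description. Cd22 was most like Myl12b (0.97), Cobll1 (0.95) and L3mbtl3 (0.95). Cd79b was most like Inpp5d, the inhibitory lipid phosphatase SHIP1 (0.96), then Ctsz and Was (both 0.94). Blnk was most like Cdk17 (0.92), Tcirg1 (0.89) and Nfkbia, the NF-kB inhibitor (0.86). Syk had Cat, which encodes catalase (0.96), Snx19 and Stk4 (both 0.91). Blk had Ppp3ca, a catalytic chain of calcineurin (0.93), Ptger1 (0.93) and Polq (0.92). Btk had Parn, Tomm70a and Rtcb (all 0.96), Plcg2 had Prpf8, Snx1 and Mtg1 (all 0.94), and Cd79a had Tk2 (0.87), Chmp2a (0.85) and Med19 (0.85).

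Further genes of the pathway were read from lists arranged by role, all in lymphoma minus normal cells with both genotypes averaged. Of 4 measured among 9 coreceptor and activating surface genes, 2 fell. Cr2, the complement receptor that lowers the threshold for receptor signals, went from 11.06 to 4.57 (-6.49, adjusted p = 2.5e-14 in limma), below the cutoff in lymphomas, so the fall is a lower bound. Ptprc, the CD45 phosphatase that keeps Src kinases active, fell by 1.72 (adjusted p = 7.7e-08 in limma), while Cd81 at 0.10 and Slc3a2 at 0.15 did not pass.

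The list named for inhibitory receptors and phosphatases also lay mostly lower: of 19 measured among 22, 13 fell and 2 rose, with a median of -0.57. Fcrl5 and Fcrl1, receptors of the Fc receptor-like family, differed by -5.34 and -4.14, the first a lower bound because lymphomas were below the cutoff. Fcrl1 is classed as an activating receptor, so the counts of this list are not of inhibitory genes alone. Cd72, an inhibitory coreceptor that is also among the B lineage genes here, differed by -2.34. The phosphatases that rose were Ptpn11, or SHP-2 (0.61, adjusted p = 0.00518 in limma), and Inppl1, or SHIP2 (0.58, adjusted p = 0.00127 in limma).

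Among other Src, Syk and Tec family kinases, 8 of 11 were measured, 4 fell and 1 rose. Tec differed by -1.89, Fyn by -1.06 and Fgr by -1.06, Fgr being below the cutoff in lymphomas. Yes1, a widely expressed Src family kinase, was the 1 that rose, from 4.33, below the cutoff, to 6.67 (2.34, a lower bound, adjusted p = 4.2e-09 in limma). Src was below the cutoff in both cell types. The median of the list was -0.35.

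Adaptors and exchange factors held 22 measured of 25, of which 13 fell and 0 rose, with a median of -0.80. Rasgrp3, a Ras activator driven by the diacylglycerol that Plcg2 makes, differed by -6.15, and Vav3, a guanine nucleotide exchange factor, by -3.41, both lower bounds because lymphomas were below the cutoff. Pik3ap1, or BCAP, an adaptor that leads to PI3K, differed by -2.38.

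In the PI3K, calcium and NF-kB arms, 27 of 36 genes were measured, 14 fell and 4 rose, with a median of -0.38. The largest falls were those of Itpr2, a calcium channel of the endoplasmic reticulum (-1.87), Prkcb, the protein kinase C that signals to NF-kB (-1.80), and Malt1, a paracaspase of NF-kB signalling (-1.62). The kinase Akt1 rose by 1.28, the diacylglycerol kinase Dgkz by 0.77 and the calcineurin chain Ppp3cb by 0.57, each past the threshold. Beside these lists, 17.8% of all genes fell and 20.4% rose. The lists too were chosen with earlier results of these data known.

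**Figure D4:**
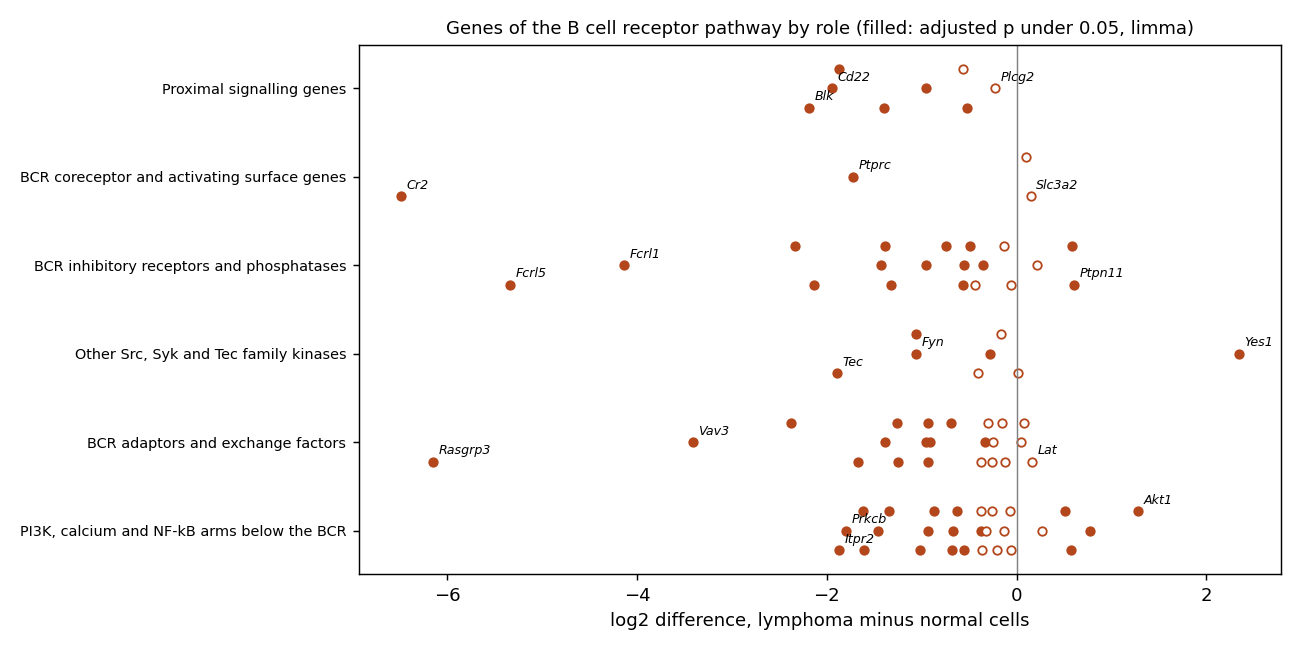
Log2 difference, lymphoma minus normal cells (horizontal axis), of the proximal genes and of 5 lists of other genes of the B cell receptor pathway (rows; vertical offsets within a row only separate points); filled points have an adjusted p under 0.05 in limma. Most filled points lie left of 0, with Cr2 at -6.49 and Rasgrp3 at -6.15 farthest, and Yes1 at 2.34 lies farthest right.

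Other blood cells use parts of this chain too: Syk, Btk, Blnk and Plcg2 also serve in myeloid cells, and Syk and Plcg2 in platelets. Of 16 macrophage and monocyte markers 8 were lower and 0 higher in lymphomas, and their mean level was 5.86 to 6.59 in normal samples and 4.63 to 5.92 in lymphomas, with Adgre1 and Csf1r above the cutoff in normal cells and below it in lymphomas. Of 8 platelet markers 7 were lower, with means of 5.52 to 6.45 and 4.35 to 5.01. With median centring, quantile normalization or the replicate block, 5 were lower. Ppbp fell by at least 5.30 on the log2 scale, from 10.20 to a mean of 4.90 below the cutoff. The other platelet markers had normal means of at most 5.85 (Pf4), and Itga2b, Gp9 and Gp5 were below the cutoff in normal cells. Natural killer markers (6 of 8 lower, 3 without p53-null normal sample 2, means 5.44 to 6.30 and 4.58 to 5.44) and dendritic cell markers (4 of 7 lower, 5.45 to 5.83 and 4.58 to 5.21) were lower as well. Neutrophil markers moved the other way, with 7 of 15 higher and means of 4.83 to 6.01 and 6.03 to 6.91. T cell markers (1 of 12 higher) had means of 4.74 to 6.18 and 4.88 to 6.81, highest in p53-null normal sample 2 and p53-null lymphoma 6, and erythroid markers (1 of 5 lower) had means of 4.58 to 5.07 and 4.41 to 5.22. Their part in the differences of Syk, Btk, Blnk and Plcg2 was not tested. Blk, Cd22 and Cd79b, which are largely restricted to B cells, fell beside the B lineage mean. Of the 8 B lineage genes 5 were lower and Vpreb3 was higher, while Pou2af1 (0.10) and Fcrla (-0.43) did not pass the threshold. Without the 2 samples of highest T cell markers, and also without the 2 narrow arrays, 6 of 8 genes passed in lymphoma against normal cells.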

How the data were processed

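The table deposited by the authors has 16 arrays and 23332 transcript clusters. The authors' deposited values, 2.508 to 13.5, were taken as log2 intensities, although neither the log base nor the summary or normalization is given in the sources used here. Partek 6.5 and build mm8 are named in their processing, per the submitters' processing notes. A symbol table names 14996 transcript clusters singly, 1019 with several symbols and 7317 with none; the brightest single-symbol one stood for each gene, which gave 14860 genes. In R 4.3.3 with limma 3.58.1, a mean for each of 4 groups was fitted to all arrays, variances were moderated, and two-sided p-values of each contrast were adjusted over all genes (Benjamini-Hochberg, threshold 0.05). The number of arrays limits the precision. The fit was tested on simulated data. Alternatives were median centring, quantile normalization, array weights, a filter on low values, row means, an unmoderated model, a replicate block, the whole table, and leaving out samples.

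All 9 genes were to be named, with up to 3 genes past the threshold with the largest rise and fall per list and the 3 genes most like each. Members and lists were chosen with earlier results of these data known. The exact tests over pairs, the array spread and the T cell setting were added after seeing the data.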

Additional observations from a re-analysis of the deposited data

Results flagged for a closer look

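Of 16 combinations of a gene with a lymphoma group of 6 samples, 1 had a sample far from the others. Blnk in p53-null lymphoma 5 was 8.54 against 9.09 in the nearest of the other 5, a gap of 0.746 of the group's range. Chance sets apart about 1 in 20 such groups.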

How the results depend on the processing

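The count of genes past the threshold in lymphoma against normal cells was 6 in each of the 16 fits that left out 1 sample, 5 to 6 in p53-null and 2 to 6 in p53-246. The genotype and interaction counts of the 8 genes were 0 in all of them. Over all genes, some passed between genotypes in normal cells and for the interaction when p53-null normal sample 2 was left out. Its group is then 1 narrow array. Correlated pairs numbered 0 to 10 when 1 lymphoma was left out, and pairs with different changes 13 to 17 when 1 sample was. Correlated pairs were also 0 with the array spread regressed out. Of 240 single-gene values of lymphoma against normal cells under the other settings, 233 kept direction and side of the threshold, as did 374 of 384 with 1 sample left out.

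Values that turned direction were all far from the threshold, and the cause was not tested. With centred arrays the Cd22 interaction was -0.04, and with quantile normalization the Plcg2 interaction was 0.10. With array weights the lymphoma genotype difference was -0.19 for Cd79a and 0.04 for Blk, and the interaction -0.15 for Cd79a and -0.02 for Cd22. Without the narrow arrays the lymphoma genotype difference of Blk was 0.11, the normal one of Btk -0.03, and the interactions of Btk and Plcg2 0.03 and 0.22. Without the 2 samples of highest T cell markers, Plcg2 in p53-null lymphoma against normal cells was 0.08, the normal genotype differences of Cd79a and Plcg2 0.37 and 0.13, and the interactions of Cd79a, Cd22 and Blk -0.07, -0.21 and -0.11. Leaving out 1 sample gave -0.85 to 0.11 for Cd79a in p53-246 and -0.43 to 0.03 for Plcg2 in p53-null lymphoma against normal cells. Genotype differences then ran from -0.33 to 0.11 for Blk in lymphomas, and in normal cells from -0.03 to 0.22 for Btk, -0.46 to 0.05 for Cd22, -0.52 to 0.43 for Cd79a and -0.33 to 0.13 for Plcg2. Interactions ran from -0.02 to 0.49 for Blk, -0.24 to 0.26 for Cd22, -0.08 to 0.88 for Cd79a and -0.30 to 0.16 for Plcg2.

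Correlations of same-numbered deviations were -0.31 to 0.33 in lymphomas and 0.07 in normal cells. In normal cells the deviations of the 2 samples of a genotype mirror each other, so both replicate numbers give the same value. Differently numbered samples were not compared, so these values do not show whether the replicate numbers mark a shared origin. With the replicate block, Btk in p53-null lymphoma against normal cells was -0.41 (adjusted p = 0.0486 in limma) and no other call on the 8 genes changed; over all genes the block gave 3004 higher and 2513 lower in lymphoma against normal cells. Centring raised the median of all lymphoma minus normal differences from -0.09 to 0.04 and the split of all genes from 3036 higher and 2649 lower to 3598 and 1768. Centring left 9 genes of the list named for inhibitory receptors and phosphatases lower, down from 13. Array weights gave 3038 higher and 3246 lower, and the low-value filter 2958 and 1614. No listed gene past the threshold changed sign in any of 25 settings.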
